A study of Mus musculus with 6 samples.

Results

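The genes described here are 32 transcripts of the lysosome, the acidic compartment in which cells break down what they have taken up or no longer need: glycosidases, sulfatases, lipases, peptidases, activator proteins, and the proteins that let cholesterol leave. They were chosen by name from the 17714 genes of the deposited expression table, and all 32 were found. No measured value entered the rule, but earlier results of these data were known when the genes were chosen. RNA came from mouse heart, from cells labelled as lymphatic endothelial cells of wild-type genotype. The sham group (sham operation, day 3, 3 libraries) was compared with the MI group (myocardial infarction, day 3, 3 libraries). The series title names lymphatic endothelial CCL2, lymphatic growth and the lymphatic removal of macrophages after infarction as its subject. The labels name no strain, age or number of animals, speak of heart tissue or primary heart endothelial cells without saying which was used for these libraries, and give no sorting step; they also describe cells kept in a culture medium with serum. Whether each library is its own animal is not stated, and the p-values therefore speak only of how these libraries vary, which may be technical variation.

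Lysosomal hydrolases are made in the endoplasmic reticulum, tagged with mannose phosphate in the Golgi and delivered to the lysosome by receptors. Each removes one kind of bond, so that sphingolipids, glycosaminoglycans, glycoprotein glycans, glycogen, proteins and cholesterol esters are taken apart in sequence, and the inherited loss of a single enzyme leads to storage of its substrate. Sphingolipids are presented to their enzymes by small activator proteins, and free cholesterol leaves through the carriers Npc2 and Npc1. The transcription factor Tfeb and its relatives bind E-box letters in the promoters of many of these genes. Phagocytes such as macrophages are known for a high content of lysosomal enzymes.

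The libraries differed by group in depth and in cell type markers. The sham libraries held 3206732 to 3591473 estimated counts and the MI libraries 21154342 to 21689333, and MI 1 stood farthest from its group (chi-square per gene of 37.3 and 22.5 against MI 2 and MI 3, 4.28 between those, and 1.55 to 1.79 between sham libraries). Such a chi-square of unscaled counts grows with depth, so its values can be compared within a group but not between sham and MI. All 12 pan-endothelial markers were lower in MI and their summed level went from between 6199 and 6271 TPM to between 1192 and 1221 TPM. TPM is the authors' value per transcript length and library size. Of 8 lymphatic endothelial markers, 7 were lower and 1, Pdpn, was higher, with sums of 473 to 498 TPM in sham and 240 to 256 TPM in MI. Pdpn made up most of the MI sum, and the 7 others summed to 468 to 493 TPM in sham and 54.35 to 56.5 TPM in MI. The defining lymphatic factor Prox1 was near 0 in both groups (1.76 ± 0.127 and 0.283 ± 0.117 TPM; SD, n = 3). All 14 macrophage markers were higher, summing to 7612 to 8000 TPM in sham and 31898 to 34400 TPM in MI. Neutrophil markers summed to 89.5 to 115 and 1745 to 2135 TPM, with Ngp at 0 in sham, cardiomyocyte markers to 4855 to 4935 and 181 to 210 TPM, mural cell markers to 1595 to 1612 and 376 to 417 TPM, and markers of T, B and NK cells to 8.38 to 9.32 and 2.33 to 3.07 TPM, with Cd3g, Nkg7 and Ncr1 at 0 in sham and Cd3e at 0 in MI. Of 8 fibroblast markers, 3 collagen genes (Col1a1, Col1a2 and Col3a1, named after their values were seen) were higher and 5 were lower, and the list summed to 1097 to 1145 TPM in sham and 666 to 754 TPM in MI. In such bulk libraries, more cells of a type and more RNA per cell cannot be told apart, and the part of these markers in the results below was not tested.

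Most of the 32 genes were more abundant after infarction. In edgeR's quasi-likelihood test, 28 members rose, 2 fell and 2 did not pass a Benjamini-Hochberg adjusted p of 0.05, against 36.4% of all 13370 tested genes called higher and 36.9% called lower. A rise of at least 2-fold was estimated for 25 called members, against 20.2% of all tested genes. The median log2 fold change of the members was 1.95 (range -0.84 to 3.79), beside -0.01 over all genes tested, of which 10.1% lay above the members' median. All members passed the filter on low counts, and the lowest count of any member was 19, in a sham library. Together the members made up 0.311 ± 0.00228% of the TPM in sham and 1.72 ± 0.0264% in MI (SD, n = 3), a ratio of 5.53, or 4.41 without Psap.

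Without Psap the members still summed to 2099 to 2116 TPM in the sham libraries and 9101 to 9384 TPM in the MI libraries, and the groups did not overlap. By single genes, all 3 MI libraries lay above all 3 sham libraries for 28 members and below them for 3 in CPM (counts over library sizes adjusted by TMM, edgeR's scaling), against 38.0% and 38.1% of all tested genes. The member whose groups overlapped was Ids. MI 1, the library that stood apart, had the highest TPM of all 6 libraries for 16 members, a count that was not made over all genes. Without MI 1, 28 members were called higher and 3 lower, against 5012 and 4909 of the 13370 genes tested with all libraries. Scaled to total counts, which moved the median log2 fold change of all tested genes to -0.36, 27 members were called higher and 4 lower, against 26.5% and 49.6% of all tested genes. The calls that changed concerned Arsb, Ids and Tfeb.

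**Figure D1:**
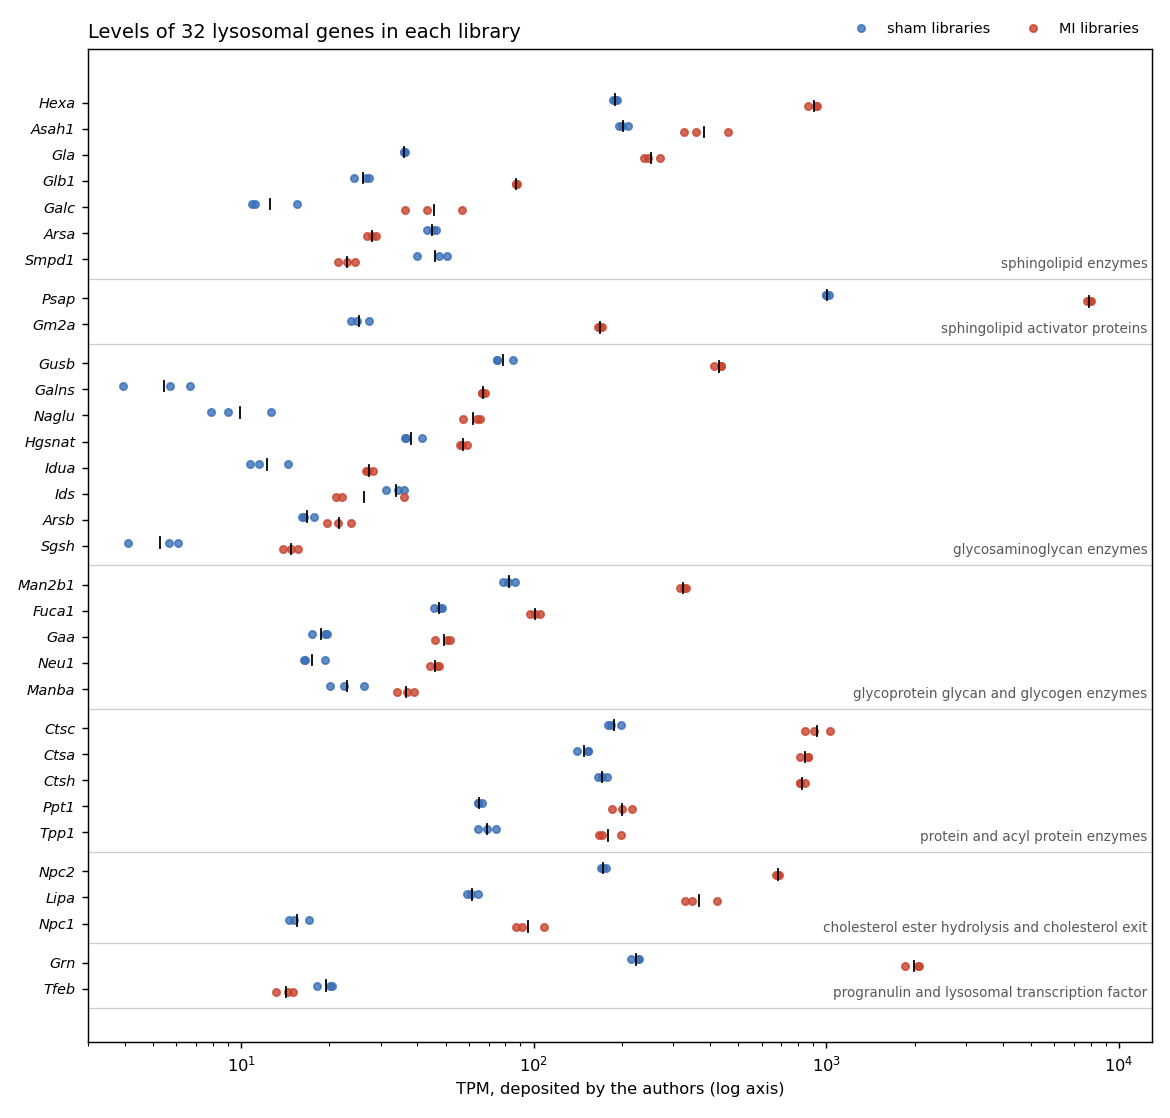
TPM of the 32 members in each library on a log axis, grouped by substrate class and ordered by the MI mean, with sham libraries in blue, MI libraries in red and black ticks at the group means. Psap and Grn lead in both groups, the blue and red points of Ids overlap, and those of Arsa, Smpd1 and Tfeb stand with sham above MI.

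The promoters of the members were searched for the E-box that Tfeb and its relatives recognise, since these factors are described below and many of the members moved together. RefSeq windows of GRCm38.p6, running from 250 bases before to 50 after a transcription start, were matched by Entrez identifier for 27 members (31 windows). Asah1, Ctsh, Galns, Hgsnat and Npc1 were not matched. The letters CACGTG, which read the same on both strands, stood in windows of 7 of the 27 members (25.9%), of 22.9% of the genes with a window in the other lysosomal lists described below (8 of 35), of 11.5% of tested genes with a window (1218 of 10627) and of 8.09% of all genes in the promoter table. Counted by window, the shares were 22.6%, 19.6%, 9.63% and 7.15%. The longer form TCACGTGA, which contains CACGTG, stood in windows of Ctsa and Gla. Its shares were 7.41% of members, 8.57% of genes in the other lysosomal lists, 2.08% of tested genes and 1.12% of all genes. The full palindromic form, with G before and C after those letters, stood in none of the 27. Its shares were 2.86% of genes in the other lysosomal lists, 0.734% of tested genes and 0.37% of all genes. The 30-base windows around the E-boxes are shown 5′ to 3′ in the direction of the gene, with CACGTG in capitals, so that the flanking bases can be compared between members that rose and the 1 that fell. Distances are counted from the start that a RefSeq window is built on, which for Ctsa is an alternative start inside the gene (chromosome 2, 164832872 to 164841032) and not its first.
Gla, chrX:134601215-134601244, minus strand, E-box 227 bases before the start: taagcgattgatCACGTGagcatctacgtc
Gla, chrX:134601182-134601211, minus strand, 194 bases before the start: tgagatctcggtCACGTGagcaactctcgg
Naglu, chr11:101070009-101070038, plus strand, 73 bases before the start: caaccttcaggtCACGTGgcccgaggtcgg
Ctsa, chr2:164833749-164833778, plus strand, 12 bases before the internal start: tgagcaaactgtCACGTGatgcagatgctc
Glb1, chr9:114401018-114401047, plus strand, 48 bases before the start: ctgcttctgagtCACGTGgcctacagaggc
Sgsh, chr11:119355522-119355551, minus strand, 29 bases before the start: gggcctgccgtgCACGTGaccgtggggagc
Gaa, chr11:119267811-119267840, plus strand, 140 bases before the start: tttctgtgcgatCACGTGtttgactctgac
Arsa, chr15:89477423-89477452, minus strand, 16 bases before the start: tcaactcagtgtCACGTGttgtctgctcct
Ctsa held another E-box 5 bases after the same internal start, and none in the window at its first start. The members with these letters ranged in log2 fold change from -0.53 (Arsa) to 2.95 (Gla), with a median of 1.89, and the 20 members with a window and no CACGTG ranged from -0.84 to 3.32, with a median of 1.90. A match is a description of letters and no measurement of binding.

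Among the sphingolipid enzymes, 5 of 7 rose and 2 fell, with a median log2 fold change of 1.89. Beside this and each class count below stand the shares of all tested genes called higher (36.4%) and lower (36.9%). Gla, the alpha-galactosidase that trims globosides, stood at 35.98, 36.4 and 36.02 TPM in the sham libraries and at 269, 237.5 and 246 TPM in the MI libraries, so that the groups were far apart. Its fitted fold change was 7.75 (log2 2.95 ± 0.08, SE; adjusted p = 4.58e-11 in edgeR's quasi-likelihood test). Hexa, which encodes the alpha subunit of beta-hexosaminidase, the enzyme that shortens gangliosides, stood at 186, 192 and 189.74 TPM in sham and 867, 922 and 926 TPM in MI. It rose 5.36-fold. Glb1, the beta-galactosidase of gangliosides and keratan sulfate, went from 26.2 ± 1.61 to 86.9 ± 0.54 TPM (SD, n = 3) and rose 3.71-fold. Galc, the galactosylceramidase, went from 12.5 ± 2.59 to 45.5 ± 10.4 TPM and rose 4.04-fold, with MI 1 at 56.8 TPM above MI 2 and MI 3 at 36.35 and 43.25 TPM. Asah1, the acid ceramidase that splits the last intermediate, was the third most abundant member in sham and the ninth in MI. It rose by less than the other enzymes that rose in this class, 2.09-fold, from 202 ± 6.92 to 381 ± 69.6 TPM, and MI 1 was again the highest library (459 TPM against 325 and 359 TPM).

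The 2 members that fell act on sphingolipids as well. Arsa, the sulfatase that removes sulfate from sulfatide, stood at 46.45, 45.4 and 43.2 TPM in sham and at 26.9, 28.9 and 27.9 TPM in MI. The groups did not overlap, and Arsa was 1.44-fold lower (log2 fold change -0.53 ± 0.10, SE; adjusted p = 4.91e-04 in edgeR's quasi-likelihood test). Smpd1, the acid sphingomyelinase that makes ceramide from sphingomyelin, stood at 39.9, 47.6 and 50.5 TPM in sham and at 23.0, 21.3 and 24.45 TPM in MI. Every MI library was below every sham library, and Smpd1 was 1.79-fold lower (log2 fold change -0.84 ± 0.12, SE; adjusted p = 3.55e-05). Among the 32 members by TPM, Arsa went from place 16 in sham to place 26 in MI and Smpd1 from place 15 to place 29. Neither fall passed a test against a 2-fold change, in which 24 members passed as higher and none as lower, against 15.9% of all tested genes higher.

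Both sphingolipid activator genes rose, with log2 fold changes of 3.14 and 2.90. Psap encodes the precursor of saposins A to D, which lift sphingolipids to Galc, Arsa, Gla and Asah1 among others. It was the most abundant member throughout, at 1019, 994 and 998 TPM in sham and 7992, 7793 and 7964 TPM in MI, and its libraries lay close together within each group. Its fitted rise was 8.82-fold, and its place among all 17714 genes by mean TPM went from 136 to 11. Psap made up 32.3% of the summed member TPM in sham and 46.0% in MI. Gm2a, the activator that presents a ganglioside to beta-hexosaminidase, stood at 23.75, 27.2 and 24.8 TPM in sham and 171, 166 and 168 TPM in MI, and rose 7.45-fold. The fold of Psap was above those of Gla, Galc, Asah1 and Arsa, and that of Gm2a above that of Hexa, but these orders were not tested.

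**Figure D2:**
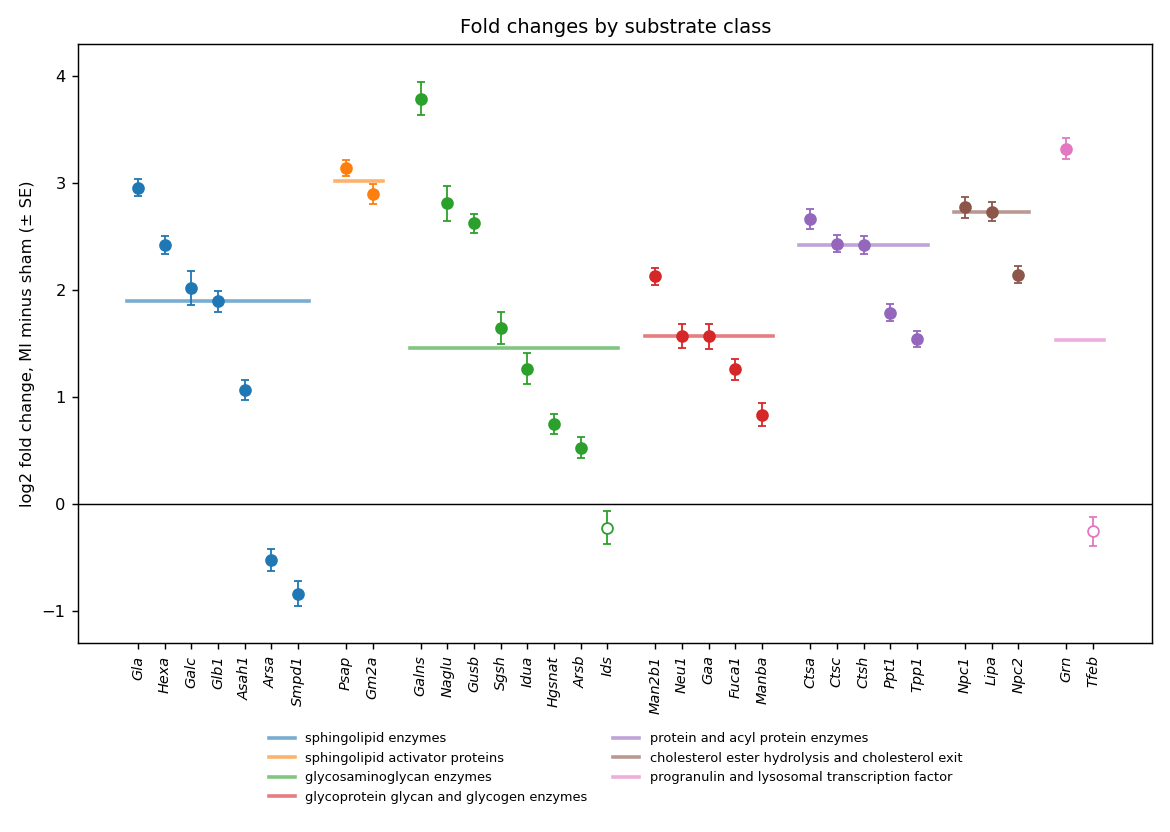
Log2 fold change of each member, MI minus sham, with its SE, by substrate class; filled points passed the adjusted p, open points did not, and a horizontal bar marks the median of each class. Galns is highest at 3.79, Arsa and Smpd1 are the filled points below 0, and Ids and Tfeb are open.

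The glycosaminoglycan enzymes spread most widely. Of 8 genes, 7 rose and 1 did not pass, with a median log2 fold change of 1.46 and a range from -0.22 to 3.79. Galns, a sulfatase of keratan and chondroitin sulfate, stood at 6.68, 5.69 and 3.95 TPM in sham and at 66.3, 68.2 and 66.55 TPM in MI. The sham libraries were among the lowest of any member and the MI libraries nearly equal, and the fitted rise of 13.8-fold (log2 3.79 ± 0.16, SE) was the largest of the 32. Its place among the members by TPM went from 31 to 19. Naglu, the glucosaminidase of heparan sulfate, stood at 12.7, 9.01 and 7.90 TPM in sham and 57.1, 63.9 and 65.4 TPM in MI and rose 7.01-fold. Gusb, the glucuronidase, rose 6.16-fold, from 78.2 ± 5.83 to 428 ± 13.8 TPM (SD, n = 3), and was the most abundant of this class in both groups.

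Other enzymes of the same chain moved less. Sgsh, which removes sulfate from the nitrogen of heparan sulfate, went from 5.27 ± 1.04 to 14.8 ± 0.89 TPM (SD, n = 3) and rose 3.13-fold. Idua, the iduronidase, went from 12.2 ± 1.93 to 27.4 ± 0.831 TPM and rose 2.40-fold. Hgsnat, the membrane enzyme that acetylates heparan sulfate for Naglu, rose 1.68-fold, from 38.1 ± 2.99 to 57.3 ± 1.51 TPM. Arsb, a sulfatase of dermatan and chondroitin sulfate, rose 1.44-fold, from 16.8 ± 0.895 to 21.6 ± 2.00 TPM, a call that was lost with libraries scaled to total counts (log2 fold change 0.18, adjusted p = 0.136 in edgeR). Ids, the iduronate sulfatase that acts before Idua, stood at 31.2, 34.4 and 35.9 TPM in sham and 35.94, 21.0 and 22.05 TPM in MI. MI 1 lay at the level of the highest sham library and the other 2 MI libraries below all of sham, and the difference did not pass (log2 fold change -0.22 ± 0.16, SE; adjusted p = 0.215 in edgeR). Without MI 1 it was called lower (log2 -0.43, adjusted p = 1.12e-05), as it was with libraries scaled to total counts (log2 -0.57, adjusted p = 0.00627). The sulfatases among the members, Arsa, Arsb, Galns, Ids and Sgsh, thus ranged from -0.53 to 3.79 in log2 fold change.

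All 5 enzymes of glycoprotein glycans and glycogen rose, with a median log2 fold change of 1.56. Man2b1, the alpha-mannosidase, stood at 85.96, 78.4 and 81.6 TPM in sham and 326, 316 and 331 TPM in MI and rose 4.37-fold. Manba, the beta-mannosidase that takes the last mannose, rose 1.78-fold, from 22.9 ± 3.13 to 36.6 ± 2.41 TPM (SD, n = 3). Neu1, the sialidase, rose 2.96-fold, from 17.4 ± 1.61 to 46.1 ± 1.68 TPM, and Fuca1, the fucosidase, 2.39-fold, from 47.4 ± 1.51 to 101 ± 3.74 TPM. Gaa, the acid glucosidase that degrades glycogen, went from 18.8 ± 1.20 to 49.4 ± 2.93 TPM and also rose 2.96-fold. None of these genes had overlapping groups, and MI was the higher group, as for 38.0% of all tested genes in CPM.

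The enzymes of proteins and acylated proteins all rose too, 5 of 5, with a median log2 fold change of 2.42. Ctsc, the dipeptidyl peptidase that activates granule proteases of leukocytes, stood at 179.78, 184 and 199 TPM in sham and 1032, 844 and 905 TPM in MI and rose 5.40-fold. Ctsa, the carboxypeptidase that protects Glb1 and Neu1 in a complex, rose 6.34-fold, from 149 ± 7.59 to 847 ± 29.2 TPM (SD, n = 3). Ctsh, an aminopeptidase, rose 5.36-fold, from 172 ± 6.17 to 823 ± 19.9 TPM. Ppt1, the thioesterase that removes palmitate from proteins, rose 3.45-fold, from 65.0 ± 1.26 to 201 ± 15.9 TPM, and Tpp1, the tripeptidyl peptidase, 2.91-fold, from 69.1 ± 4.85 to 179 ± 17.1 TPM.

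The genes of cholesterol handling rose together. Lipa, the acid lipase that frees cholesterol from its esters, stood at 59.2, 60.95 and 64.5 TPM in sham and 424, 329 and 347.5 TPM in MI, with MI 1 highest, and rose 6.64-fold. Npc2, the soluble protein that carries free cholesterol inside the lysosome, stood at 176, 172 and 170.08 TPM in sham and 672, 688 and 682 TPM in MI, and rose 4.42-fold. Npc1, the membrane protein that takes cholesterol from Npc2 and exports it, stood at 15.1, 17.1 and 14.5 TPM in sham and 109, 87.2 and 91.1 TPM in MI, and rose 6.84-fold. The median log2 fold change of the 3 genes was 2.73. Npc1 remained several-fold below its partner in TPM in every library.

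Grn and Tfeb, which degrade no substrate themselves, went different ways. Grn encodes progranulin, a secreted protein that is also delivered to lysosomes and supports their enzymes. It stood at 228, 216 and 229 TPM in sham and 1861, 2049 and 2078 TPM in MI, the second most abundant member in both groups, and rose 9.99-fold (log2 3.32 ± 0.10, SE; adjusted p = 7.44e-11 in edgeR's quasi-likelihood test). Tfeb stood at 20.4, 20.05 and 18.1 TPM in sham and at 13.1, 15.01 and 14.4 TPM in MI and was the least abundant member in MI. All MI libraries lay below all sham libraries, yet the difference did not pass in edgeR (log2 fold change -0.26 ± 0.14, SE; adjusted p = 0.108). It was called lower by limma on log2(TPM + 1) (log2 -0.43, adjusted p = 0.00529), with libraries scaled to total counts (log2 -0.61, adjusted p = 0.00144) and without MI 2 (log2 -0.34, adjusted p = 0.0487).

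The 3 relatives of Tfeb, which bind the same E-box, were higher in MI (median log2 fold change 3.17). Tfec, a member of the family known from myeloid cells, stood at 4.74, 3.94 and 2.69 TPM in sham and 61.2, 57.6 and 62.3 TPM in MI and rose 17.8-fold. Mitf, known from pigment cells, osteoclasts and macrophages, stood at 4.95, 4.13 and 4.17 TPM in sham and 45.02, 29.8 and 31.8 TPM in MI and rose 9.02-fold. Tfe3, which is widely made, rose 2.05-fold, from 31.6 ± 4.78 to 57.95 ± 1.39 TPM (SD, n = 3). Summed TPM of the 3 relatives was 1.87 to 2.27 times that of Tfeb in the sham libraries and 9.67 to 12.4 times in the MI libraries.

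Ratios between partner genes in the same library do not depend on how libraries are scaled, and those described here were among 8 compared by an exact two-sided permutation test, in which 3 against 3 libraries cannot go below p = 0.1. For the 7 ratios described the groups did not overlap and p was 0.1 (0.114 after Benjamini-Hochberg adjustment over the 8), so that none could pass. In the complex of Ctsa with Glb1 and Neu1, Neu1 per Ctsa was lower in all 3 MI libraries than in any sham library (0.117 ± 0.00889 in sham and 0.0544 ± 3.8e-04 in MI), and Glb1 per Ctsa went from 0.176 ± 0.00293 to 0.103 ± 0.00342. Npc1 per Npc2 was 0.0858, 0.0996 and 0.0853 in sham and 0.162, 0.127 and 0.134 in MI. Lipa per Npc2 was 0.357 ± 0.0214 in sham and 0.54 ± 0.0805 in MI.

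The widest difference was in the ratio of a gene that fell to one that rose. Arsa per Psap was 0.0448 ± 0.00135 in sham and 0.00352 ± 1.7e-04 in MI (SD, n = 3), a log2 difference of -3.67. Psap per Gm2a was 39.9 ± 3.24 in sham and 47.0 ± 0.404 in MI, a log2 difference of only 0.24. Sgsh per Naglu, 2 enzymes of heparan sulfate, was 0.445, 0.455 and 0.768 in sham and 0.259, 0.217 and 0.24 in MI, and the sham libraries spread more than those of MI.

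**Figure D3:**
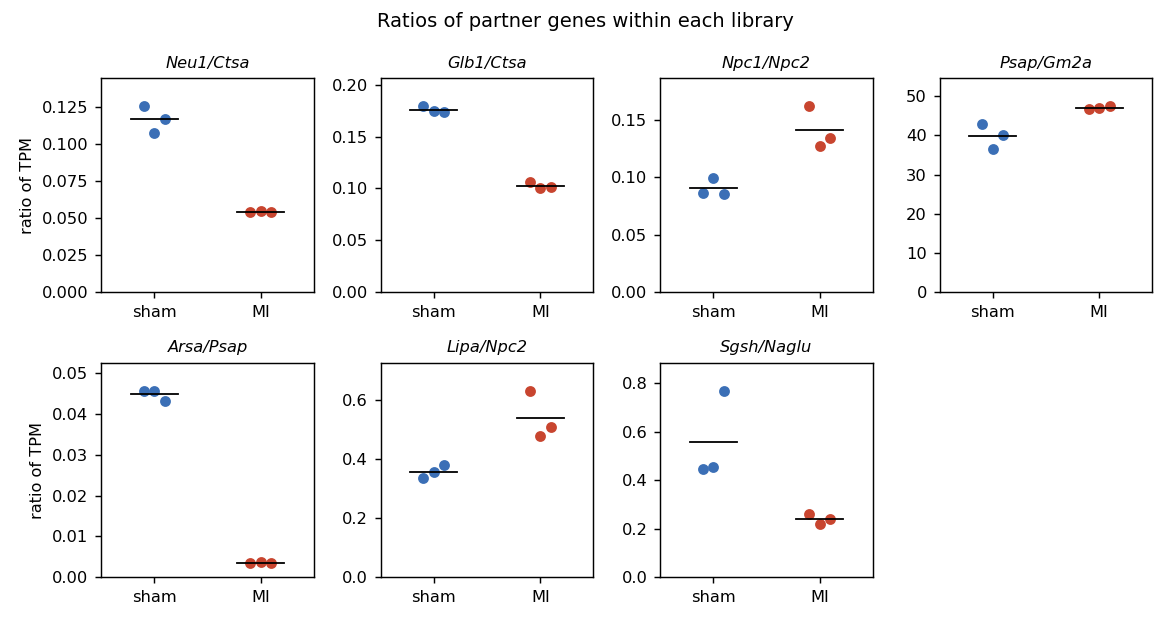
Ratio of TPM of 7 pairs of partner genes in each library, each panel from 0 on its own linear axis, with sham libraries in blue, MI libraries in red and black lines at the group means. The groups do not overlap in any of the 7 panels, and Arsa over Psap differs most, with means of 0.0448 and 0.00352.

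Of 51 genes outside the 32, in 4 lists called lysosomal here, 44 rose, 3 fell and 4 did not pass. Over all tested genes, 36.4% were called higher and 36.9% lower, shares that also stand beside the counts of each list. The 51 genes had a median log2 fold change of 1.27. With libraries scaled to total counts, 37 rose and 6 fell, against 26.5% and 49.6% of all tested genes. Some of the 51, such as Gramd1b, act outside the lysosome. Of 31 other hydrolase genes 26 rose, 2 fell and 3 did not pass. Acp5, the tartrate-resistant phosphatase known from osteoclasts and macrophages, stood at 7.43, 1.87 and 6.61 TPM in sham and 196, 229 and 208 TPM in MI and rose 44.0-fold. Pld3, a phospholipase D family member of the lysosome, rose 9.62-fold and the fucosidase gene Fuca2 6.74-fold. Named after their values were seen, Hyal2 (2.71-fold) and Smpdl3b (1.75-fold) were the hydrolase genes that fell, and Rnaset2b, Arsk and Cpq did not pass, with log2 fold changes of 0.54, -0.0013 and -0.10; Rnaset2b has a near-identical neighbour, Rnaset2a, which makes its count uncertain.

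All 10 genes for enzyme delivery and activation rose (8 with libraries scaled to total counts), with a median log2 fold change of 1.21. Cln8, which helps enzymes out of the endoplasmic reticulum, rose 4.61-fold, M6pr, a mannose phosphate receptor, 4.05-fold, from 130 ± 5.86 to 471 ± 29.1 TPM (SD, n = 3), and Gnptab, which makes the mannose phosphate tag, 4.005-fold. Of 7 other genes for sterol transfer, 5 rose and 1 fell. Gramd1b, which takes cholesterol from the plasma membrane into the endoplasmic reticulum, rose 13.8-fold, from 2.53 ± 0.251 to 33.8 ± 2.74 TPM. Its relative Gramd1c rose 4.58-fold, from 0.74 ± 0.351 to 3.19 ± 0.727 TPM, with only 5, 3 and 8 counts in the sham libraries. Osbpl5, a lipid transfer protein of membrane contacts, fell 2.93-fold, and Osbpl1a, named after its value was seen, did not pass (log2 fold change -0.06).

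In the same fit the macrophage markers had a median log2 fold change of 2.29 and a range from 1.03 to 3.93, and 13 of the 32 members lay above that median. The share of all tested genes above 2.29 was not counted, and 10.1% of them lay above the members' median of 1.95. Summed TPM of the macrophage markers was 4.25 times higher in MI, against 5.53 times for the members, 4.41 times for the members without Psap and 3.09 times for the sphingolipid enzymes alone. The neutrophil list had a median log2 fold change of 4.20 over its 8 tested genes and a summed TPM 19.4 times higher in MI. The pan-endothelial list had a median of -2.08, below Smpd1, the lowest member at -0.84.

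**Figure D4:**
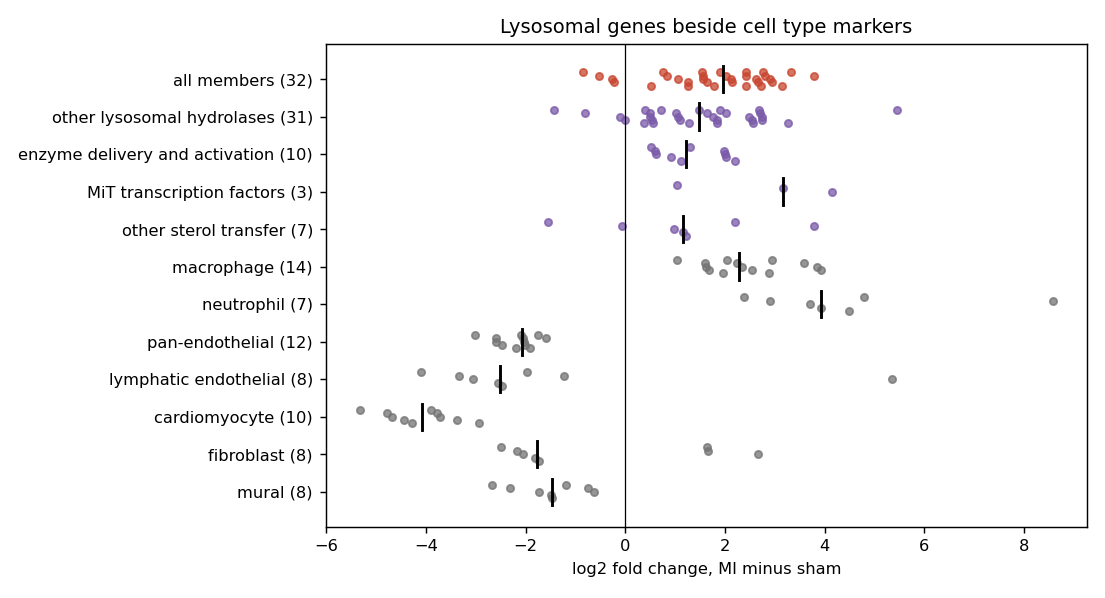
Log2 fold change, MI minus sham, of the members (red), of 4 further lysosomal lists (violet) and of 7 marker lists (grey), with the number of genes plotted in brackets and black lines at the medians; genes with 0 counts in a whole group are left out. The members spread from -0.84 to 3.79 around 1.95, beside medians of 2.29 for the macrophage list and -2.08 for the pan-endothelial list. The neutrophil list stands higher.

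By RefSeq positions on GRCm38.p6, 13 of the 32 members overlap another annotated gene, so part of their counts is uncertain where the counting did not use strand. Among those the text turns on, Galns (chromosome 8, 122578237 to 122611701) overlaps Trappc2l, Gm34962 and Gm45857, Arsa (chromosome 15, 89472476 to 89477424) overlaps C230037L18Rik, Smpd1 (chromosome 7, 105554360 to 105558389) overlaps Gm39063, and Idua (chromosome 5, 108660331 to 108685446) overlaps Slc26a1, Dgkq and Gm42151. In the ratios described, Ctsa overlaps Neurl2 and Pltp, Glb1 overlaps Tmppe and Gm30254, Npc1 overlaps Rmc1, and Sgsh overlaps Card14 and Slc26a11. Psap (chromosome 10, 60277628 to 60302600), Grn (chromosome 11, 102430507 to 102436809), Gla (chromosome X, 134588169 to 134601005) and Tfeb (chromosome 17, 47737037 to 47792416) overlap none.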

How the data were processed

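The authors deposited 1 table with estimated counts per gene and library (2 decimals, not scaled) and with TPM, both named in the file headers. Per the series' design text, BGISEQ-500 reads were mapped to the mouse genome GRCm38; the aligner, counting program, annotation and strand setting are not given in the sources used here. Agilent Feature Extraction 9.1 is listed in the submitters' processing notes, with no role.

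Groups and replicate numbers came from sample titles. Estimated counts were rounded. In R 4.3.3, edgeR 4.0.16 kept 13370 genes by filterByExpr, used TMM scaling, and fitted group as the only term (quasi-likelihood, two-sided, Benjamini-Hochberg over all genes tested, threshold 0.05). Each SE was obtained from the F statistic, as absolute log2 fold change over root F. The common biological coefficient of variation was 0.103. TPM, for levels, were used as deposited by the authors. Fold changes come from counts, not TPM. Positions, promoters and gene overlaps came from RefSeq tables of GRCm38.p6, and the sense of 28 of 31 promoter windows, including all those printed, was checked against GENCODE transcripts.

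The members, classes, lists and tests were chosen with earlier results of these data known. The rule for names took all members, a few partners of members that are not reported here, and the 3 called genes with the largest absolute log2 fold change, at 5 CPM or more in the higher group, from each other lysosomal list. The procedure was run on simulated counts in which few genes changed, up or down at random, with a common dispersion. In the real data 73.3% of tested genes were called, so the simulation does not show the error rate here. Alternatives were DESeq2 1.42.0, limma 3.58.1 (voom, and trend on log2(TPM + 1) and log2(TPM + 0.1) for genes at 1 TPM in 3 libraries), RLE or total-count scaling, no or a stricter filter (100 counts in total, and every library of 1 group at 1 CPM), thinning of MI to sham depth, the replicate number as a block, a fold above 2, and each library left out.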

Additional observations from a re-analysis of the deposited data

How the results depend on the processing

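Over 17 alternatives no result changed direction, 24 of the 32 members were called in each, and 531 of 544 member fold changes stayed on their side of the threshold (6 more passed, 7 no longer did). The same counts were not made over all tested genes, of which 73.3% were called in the main fit. They therefore do not set the members apart from other genes. When a fold change above 2 was tested, 2121 genes were higher and 2039 lower, with 24 members higher and 0 lower; Arsa, Smpd1, Asah1, Hgsnat, Arsb and Manba lost their calls, since a stricter null was tested. With libraries scaled to total counts, 3549 genes were higher and 6628 lower, and 4 members were lower. That scaling gave medians of log2 fold change of 1.54 for sphingolipid enzymes, 2.67 for activators, 1.11 for glycosaminoglycan enzymes, 1.21 for glycan and glycogen enzymes, 2.07 for protein enzymes, 2.38 for cholesterol genes, 1.18 for Grn and Tfeb and 1.604 for all members. On log2(TPM + 0.1) they were 1.73 (sphingolipid), 2.86 (activators), 2.26 (protein), 2.57 (cholesterol), 1.35 (Grn and Tfeb) and 1.79 (all). On log2(TPM + 1) they were 1.70 (sphingolipid), 2.83 (activators), 1.23 (glycosaminoglycan), 1.35 (glycan and glycogen), 2.26 (protein), 2.54 (cholesterol) and 1.74 (all). With MI thinned to sham depth they were 1.77 (sphingolipid) and 1.86 (all). Total-count scaling, which leaves out the TMM factors, also moved the median of all tested genes, from -0.01 to -0.36. The cause of the other shifts was not tested.

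Leaving out each library gave 4284 to 5012 genes higher, 4312 to 4913 lower, 28 members higher and 2 to 3 lower, and a member median of 1.91 to 2.01. With the replicate number as a block, 4764 genes were higher and 4871 lower, with 28 and 2 members. The labels do not say whether the numbers pair the libraries. The correlations of same-numbered deviations were -0.03, -0.0015 and 0.03. With 3 libraries per group and shallow sham libraries, they cannot settle whether the libraries were paired. The lowest counts of any member were in the shallow sham libraries (19, for Galns), which limits the precision of its fold change.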
